A study of Homo sapiens with 9 samples.

Results

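The mRNAs of collagens, laminins, integrins and fibronectin, the proteins with which cells build and hold a matrix, were followed into the RNA that co-purified with the CCR4-NOT complex. The set comprised all protein-coding genes of the deposited table with a COL, LAMA, LAMB, LAMC, ITGA, ITGB or FN1 symbol of the usual form, 76 of 30956 genes. These were 39 collagen chains, 12 laminin chains, 16 integrin alpha subunits, 8 integrin beta subunits and fibronectin. The genes were chosen by symbol and not by their measured values.

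The cells were HEK293T, a transformed human embryonic kidney line. RNA was recovered by immunoprecipitation (RIP) through V5-tagged CNOT7, a nuclease subunit of CCR4-NOT, with the substitution D40A that impairs its catalysis. The series held 3 RIP libraries, 3 input libraries of cells kept 24 h with 3 µg/mL doxycycline and 3 of cells without it. The sources used here do not give the doxycycline state of the RIP cells, nor which of the inputs entered the authors' comparison. Background recovery on the beads was not subtracted, since an immunoprecipitate of untagged cells was not analysed here.

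CCR4-NOT shortens the poly(A) tails of mRNAs and thereby starts their decay. Collagens, laminins and fibronectin are secreted proteins made at the endoplasmic reticulum. Collagen and laminin chains assemble there into trimers, fibronectin into dimers, and integrins are paired alpha and beta receptors that bind these proteins from the cell surface. Type IV collagen and laminins form the sheet-like basement membranes on which kidney epithelium rests.

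Values per library are normalized counts, gene counts that the authors divided by a size factor. The RIP libraries held 37140622 to 40764899 reads in genes, and 3 reads, the floor for a gene at 0, were worth 2.24 to 2.48 normalized counts, for counting error only. RIP replicate 2 stood apart at low counts, with 25.6% of all tested genes at 0. The share at 0 was 3.19% for replicate 1 and 3.00% for replicate 3. Of the 67 tested members, 18 had no read in replicate 2, and 17 of them had none in that library alone. The line's own genes PAX2, LHX1, NEFL and NEFM were above 10 normalized counts in every RIP library, 4 of 4, with a summed level of 4822 to 5223 in RIP against a derived input level of 5584. Of 5 endothelial markers, 4 (PECAM1, CDH5, VWF and TEK) were below 10 in every RIP library, but KDR had 44.7, 130 and 52.5. The list's sum was 53.8 to 131 in RIP against 48.4, with most of the RIP sum from KDR. Of 6 fibroblast markers 5 had values, summing to 485 to 549 in RIP against 578, most of it COL1A1. The leukocyte markers with values were the integrins ITGAL, ITGAM, ITGAX and ITGB2, summing to 31.5 to 69.0 in RIP against 44.5.

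The mRNAs of fibronectin, type IV collagen and laminins were recovered below input in the RIP libraries, while most integrin alpha subunits were not called. Of the 67 tested members, 25 were lower and 1 was higher in RIP at an adjusted p (DESeq2) under 0.05 in the authors' deposited table. These are 37.3% and 1.49% of the tested members, against 19.9% and 20.6% of all 20649 tested genes. Against tested protein-coding genes alone the background was 26.1% lower and 26.4% higher. The median log2 fold of the tested members in the authors' deposited table was -0.81, against -0.08 for all tested genes. A change of at least 2-fold was called downward for 19 members and upward for 1, against 9.63% and 10.3% of all tested genes. RIP libraries are compared on relative scales, so less recovery of a gene and more recovery of the rest cannot be told apart.

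The 46 tested matrix chains comprised 19 lower and 1 higher, with a median log2 fold of -1.14 in the authors' deposited table. The 21 tested integrin subunits comprised 6 lower and 0 higher, with a median of -0.59 in the authors' deposited table. Their share lower, 28.6%, is near the 26.1% of tested protein-coding genes. Their share higher was 0%, against 26.4% of those genes, whose median log2 fold was -0.04 in the authors' deposited table. The difference between matrix chains and receptors was not tested. Scaling by total counts instead of the authors' size factors raised every fold by 0.50 and moved the median of all tested genes to 0.42. Of all 20649 tested genes, 2055 were then lower and 6994 higher. Of the 67 tested members, 15 were then lower and 6 higher. Of those 15, 14 were matrix chains and 1 was an integrin, ITGAE. Without RIP replicate 2, and with the deposited SE kept, 23 members were lower and 0 higher.

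**Figure D1:**
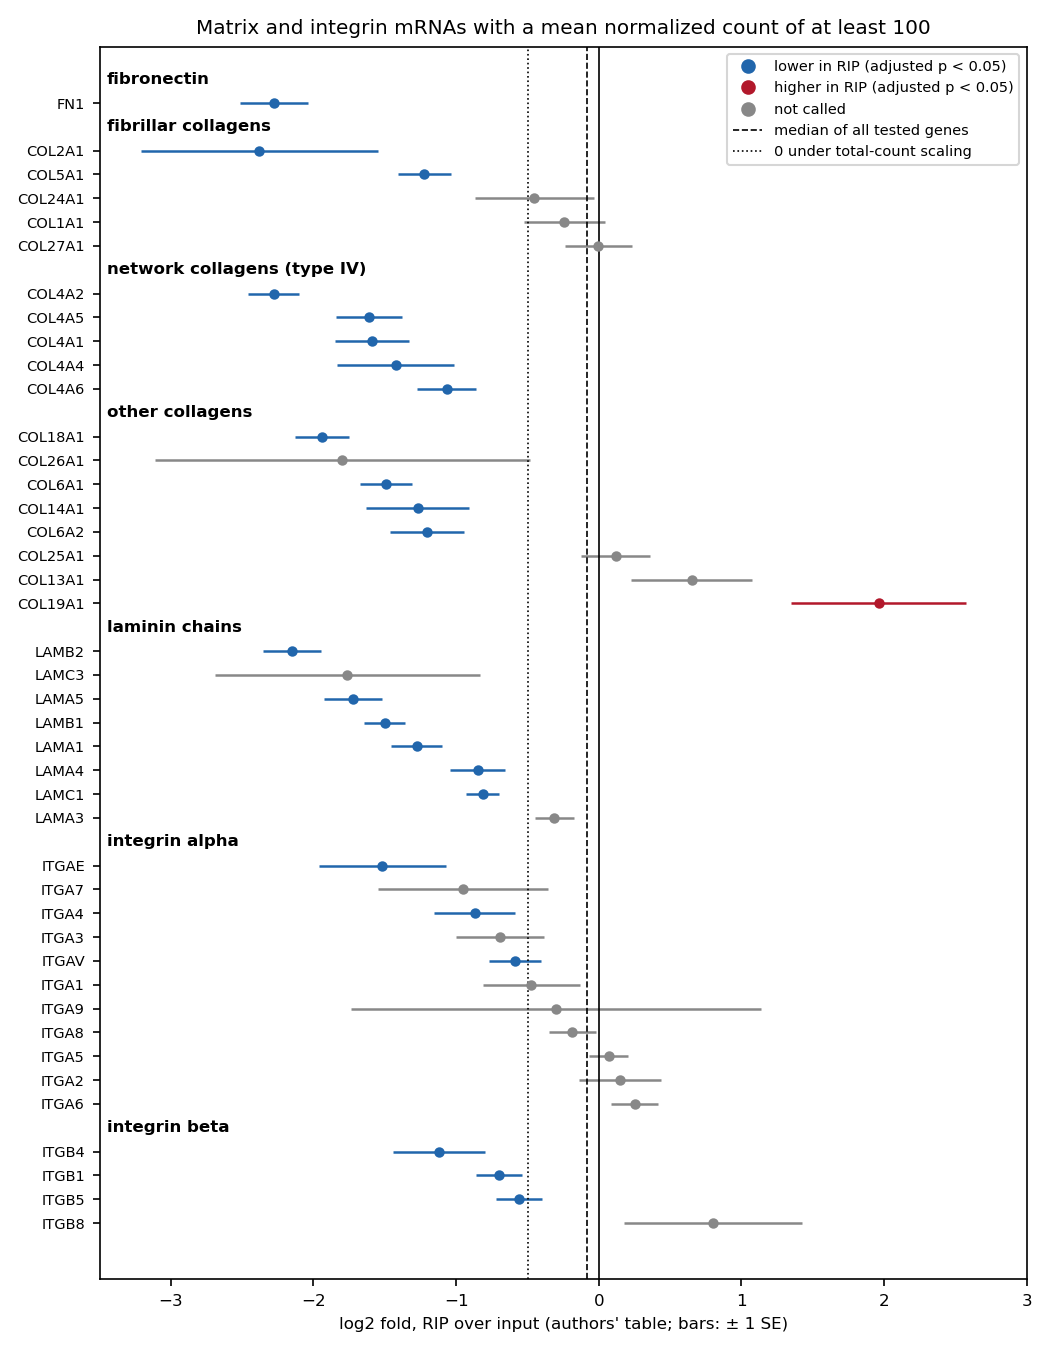
Log2 fold of RIP over input for the 42 tested members with a mean normalized count of at least 100, grouped by class, with bars of 1 SE, both from the authors' deposited table. Blue points were called lower and the red point higher; the dashed line is the median of all tested genes (-0.08) and the dotted line is where 0 would lie under total-count scaling.

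Fibronectin was among the members farthest below input. FN1 (ENSG00000115414, chromosome 2, 215360865 to 215436068, GRCh38.p14) encodes the dimeric glycoprotein that links cells to collagen fibrils. It had 566, 250 and 550 normalized counts in RIP replicates 1, 2 and 3, a mean of 455 ± 178 (SD, n = 3), while the derived input was 2204. All 3 RIP libraries lay below that input, replicate 2 lowest. By the authors' deposited table the log2 change was -2.28 (SE 0.24, adjusted p = 2.24e-20 by DESeq2). It was -1.98 without RIP replicate 2 and -1.78 under total-count scaling, and remained called in both. The derived input was obtained as the RIP mean over the linear fold, as the authors' deposited table gives it, and carries no SD. The locus of FN1 overlaps that of the protein-coding gene ATIC.

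Type IV collagen, the network-forming collagen of basement membranes, fell in 5 of its 6 chains, with a median log2 fold of -1.50 in the authors' deposited table. That is 83.3%, against 26.1% of tested protein-coding genes that were lower. Its genes lie head to head in 3 pairs that are transcribed outward from shared promoters. Sequence before the starts is shown for COL4A1 with COL4A2 and for COL4A5, from the 2 pairs in which both genes fell. The stretch between the paired starts measured 126 bases for COL4A1 and COL4A2 and 379 for COL4A5 and COL4A6. For COL4A3 and COL4A4 the first listed starts, not the nearest, had 418 bases between them. The gene bounds of that pair lie closer, with COL4A4 reaching to 227164488 and COL4A3 beginning at 227164624 on chromosome 2. The sequences are RefSeq's, 5′ to 3′ on the plus strand of GRCh38.p14, where COL4A2 and COL4A5 read rightward. They are chr13:110307158-110307283, the whole stretch between COL4A1 and COL4A2, and chrX:108439588-108439837, the 250 bases before the start of COL4A5. Capitals mark the GC box GGGCGG and the CCAAT box CCAAT on either strand.
COL4A1-COL4A2: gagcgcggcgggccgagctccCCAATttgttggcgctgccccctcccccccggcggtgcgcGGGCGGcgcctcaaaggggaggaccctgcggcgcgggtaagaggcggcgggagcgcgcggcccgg
COL4A5: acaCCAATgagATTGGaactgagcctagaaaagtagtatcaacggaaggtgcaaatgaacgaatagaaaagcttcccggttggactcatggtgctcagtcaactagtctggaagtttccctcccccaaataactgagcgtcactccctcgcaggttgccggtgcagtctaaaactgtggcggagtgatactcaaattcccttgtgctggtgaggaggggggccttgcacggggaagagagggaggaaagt
The COL4A1-COL4A2 stretch held 1 GC box and 1 CCAAT box, and the COL4A5 window held 0 and 2. Of 54 members with a promoter in the RefSeq table, 55.6% had a GC box and 18.5% a CCAAT box in the 250 bases before the start, against 42.3% and 33.0% of 27305 promoters. These matches are descriptions of the letters and were not tied to the recovery of the mRNAs.

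COL4A1 and COL4A2 encode the chains of the most widespread type IV trimer. COL4A2 (ENSG00000134871, chromosome 13, 110307284 to 110513209) had 340, 275 and 426 normalized counts in RIP against a derived input level of 1685. The authors' deposited table gave it a log2 change of -2.28 (SE 0.18, adjusted p = 5.13e-36 by DESeq2). COL4A1 (ENSG00000187498, chromosome 13, 110148963 to 110307157) had 531, 224 and 385 against 1141, a log2 change of -1.59 (SE 0.26) in the authors' deposited table. Both chains thus lay below input in every RIP library, and replicate 2 was the lowest for both.

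The paired genes on chromosome X also fell together. COL4A5, a chain of the glomerular basement membrane, had 245, 163 and 175 normalized counts in RIP against a derived input level of 593. COL4A6, its neighbour, had 152, 160 and 151 against 323, the closest agreement between RIP libraries of any called collagen. Their log2 folds in the authors' deposited table were -1.61 (SE 0.23) and -1.07 (SE 0.21). Of the pair on chromosome 2, COL4A4 was lower, with 106, 56.6 and 51.7 normalized counts against 192 and a log2 change of -1.42 (SE 0.41) in the authors' deposited table. COL4A3 had 44.7, 64.8 and 44.7 against 64.5 and was not called, at -0.33 (SE 0.59) in the authors' deposited table. Its SE is the widest of the 6 chains, and the difference between COL4A3 and COL4A4 was not tested. COL4A4 was not called under total-count scaling.

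The fibrillar collagens, which form the banded fibrils of connective tissue, were lower for 2 of 8 tested chains and higher for 0, with a median log2 fold of -0.84 in the authors' deposited table. The share lower, 25%, is near the 26.1% of tested protein-coding genes, while the share higher was 0% against 26.4%. COL5A1, which limits the thickness of fibrils, had 330, 314 and 286 normalized counts in RIP against a derived input level of 724. By the authors' deposited table the log2 change was -1.22 (SE 0.19, adjusted p = 3.93e-10 by DESeq2). COL2A1, the collagen of cartilage, had 245, 14.9 and 263 against 908. Replicates 1 and 3 agreed closely, and replicate 2 was far below them. Its log2 change was -2.38 (SE 0.83) by the authors' deposited table. Without replicate 2 it became -1.84 and was not called, but the deposited SE was kept. That SE includes the spread from replicate 2, so the lost call does not show that the call rested on it. COL2A1 was not called under total-count scaling either.

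COL1A1, the main chain of type I collagen, was not called. It had 334, 535 and 322 normalized counts in RIP against a derived input level of 469, so replicate 2 lay above the input and the others below. In the authors' deposited table it stood at a log2 change of -0.24 (SE 0.28), and 0.26 under total-count scaling. COL27A1 had 504, 318 and 484 against 436 and COL24A1 84.5, 153 and 92.5 against 151, also with libraries on both sides. The chains COL3A1, COL5A2 and COL11A2 had mean normalized counts under 100 over the 9 libraries and were not called.

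Among the remaining 21 tested collagens, 4 were lower and 1 was higher. The shares were 19.0% and 4.76%, against 26.1% and 26.4% of tested protein-coding genes. Of all tested genes, 19.9% were lower and 20.6% higher. COL18A1, a basement membrane collagen whose end fragment is endostatin, had 351, 224 and 336 normalized counts in RIP against a derived input level of 1165. The log2 change from the authors' deposited table was -1.94 (SE 0.19, adjusted p = 1.99e-23 by DESeq2). COL6A1 and COL6A2, which pair with COL6A3 in beaded microfibrils, lie near each other and COL18A1 on chromosome 21. COL6A1 had 1009, 1585 and 979 against 3348, and COL6A2 had 407, 756 and 435 against 1227. Replicate 2 was the highest library for both genes, and still lay below input. Their log2 folds in the authors' deposited table were -1.49 (SE 0.18) and -1.20 (SE 0.26). COL6A3 had 34.8, 0 and 21.2 normalized counts against 47.4 and was not called (log2 fold -1.35, SE 1.06, in the authors' deposited table). COL14A1, a collagen that sits on the surface of fibrils, had 116, 229 and 122 against 375, a log2 change of -1.27 (SE 0.36) in the authors' deposited table, and was not called under total-count scaling.

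COL19A1 was the member called higher. This collagen is found beside basement membranes and, like COL14A1, does not form fibrils of its own. It had 236, 481 and 140 normalized counts in RIP against a derived input level of 73.3. All 3 libraries lay above the input, but they spread over a wide range, with replicate 2 highest. The authors' deposited table gave it a log2 change of 1.96 (SE 0.61, adjusted p = 0.00452 by DESeq2). Without replicate 2, with the deposited SE kept, it was 1.36 and not called (adjusted p = 0.0650, Wald test). The transmembrane collagens COL13A1, COL23A1 and COL25A1 were not called, with log2 folds of 0.65 (SE 0.42), 0.84 (SE 0.73) and 0.12 (SE 0.24) by the authors' deposited table. COL9A3, a chain of type IX collagen, had 126, 174 and 154 normalized counts against 85.2, all above input, and a log2 change of 0.83 (SE 0.47) in the authors' deposited table that was not called. COL9A3, COL13A1 and COL25A1 passed as higher under total-count scaling.

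**Figure D2:**
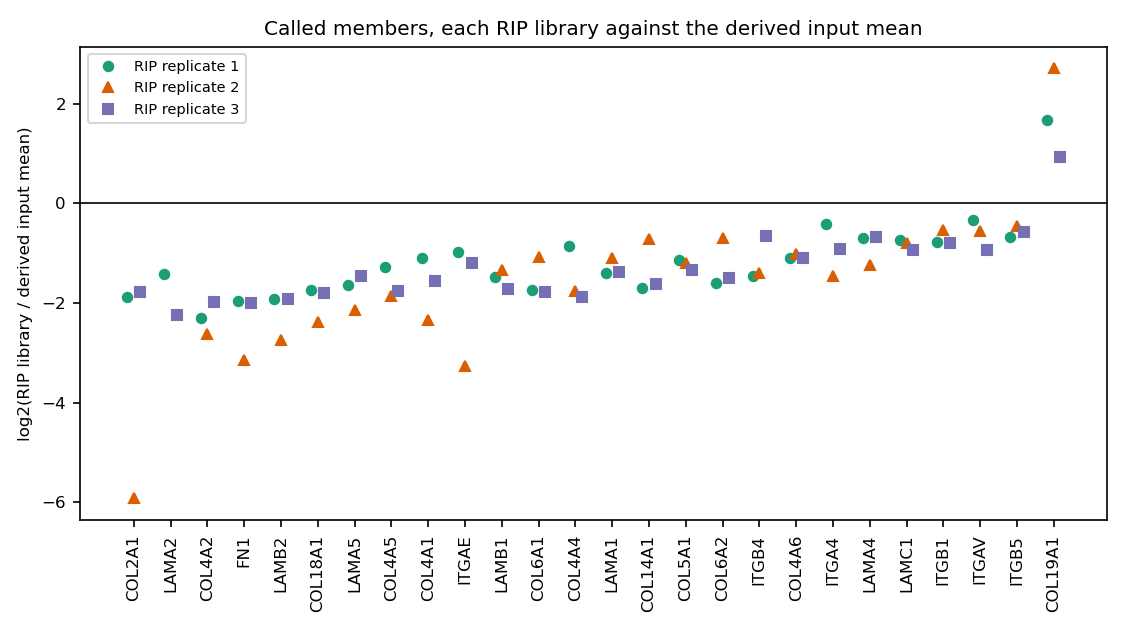
Log2 ratio of each RIP library to the derived input mean for the 26 called members, ordered by fold. All points of the 25 lower members lie below 0; replicate 2 of COL2A1 is at -5.93, and LAMA2 has no point for replicate 2, where it had no read.

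Laminins, the cross-shaped trimers of basement membranes, fell in 7 of 10 tested chains with 0 rising, at a median log2 fold of -1.39 in the authors' deposited table. The shares were 70.0% and 0%, against 26.1% and 26.4% of tested protein-coding genes. LAMC1, the gamma chain shared by most laminins, had 5369, 5097 and 4666 normalized counts in RIP against a derived input level of 8872. Its 3 libraries lay close together and below input, at a log2 change of -0.81 (SE 0.11, adjusted p = 8.61e-12 by DESeq2) in the authors' deposited table. The SE of LAMC1 was the smallest of all tested members.

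The beta chains lay farther below input than LAMC1. LAMB2, the beta chain of glomerular and synaptic laminins, had 406, 228 and 404 normalized counts in RIP against a derived input level of 1536, a log2 change of -2.15 (SE 0.20) in the authors' deposited table. LAMB1 had 816, 890 and 688 against 2260, a log2 change of -1.50 (SE 0.15, adjusted p = 2.27e-23 by DESeq2) in the authors' deposited table. The chains of 1 trimer thus had folds of unequal size, a difference that was not tested.

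Of the 5 alpha chains, which carry the main sites for cell receptors, 4 were lower (80%, against 26.1% of tested protein-coding genes). LAMA5, the alpha chain of most mature epithelia, had 373, 264 and 423 normalized counts against 1166, a log2 change of -1.72 (SE 0.20) in the authors' deposited table. LAMA1, prominent in embryonic basement membranes, had 406, 500 and 409 against 1062, a log2 change of -1.28 (SE 0.18) in the authors' deposited table. LAMA4, found in vessels, had 760, 523 and 773 against 1235. Its log2 change, -0.85 (SE 0.19) by the authors' deposited table, was called, but was -0.35 and not called under total-count scaling. LAMA2, the alpha chain of muscle, had low counts, with 30.6, 0 and 17.2 against 82.1, and only replicate 2 was at the floor. Its adjusted p of 0.0336 (DESeq2, authors' deposited table) lay just inside the threshold. With the deposited SE kept, the call was lost without replicate 2, with all 6 inputs as 1 group and under total-count scaling. LAMA3, the epidermal alpha chain, lay just outside at an adjusted p (DESeq2) of 0.0541 in the authors' deposited table. It had 831, 868 and 814 against 1040, all below input, a log2 change of -0.31 (SE 0.14) in the authors' deposited table. LAMC3 had 137, 4.47 and 128 normalized counts against 304 and was not called.

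Integrin alpha subunits, which set what a receptor binds, were lower for 3 of 14 tested genes and higher for 0. The shares were 21.4% and 0%, against 26.1% and 26.4% of tested protein-coding genes. Of all tested genes, 19.9% were lower and 20.6% higher. The median log2 fold was -0.64 in the authors' deposited table. ITGAV, the subunit of receptors for fibronectin and vitronectin, had 1893, 1640 and 1248 normalized counts in RIP against a derived input level of 2396. By the authors' deposited table the log2 change was -0.59 (SE 0.18), and -0.09 under total-count scaling and -0.36 with all 6 inputs as 1 group, where it was not called. ITGA4, a fibronectin receptor subunit best known from white blood cells, had 730, 356 and 514 against 976, a log2 change of -0.87 (SE 0.28) in the authors' deposited table. With the deposited SE kept, that call was lost without replicate 2 (-0.65), with all 6 inputs (-0.61) and under total-count scaling (-0.37). ITGAE had 145, 29.8 and 124 against 285, a log2 change of -1.52 (SE 0.44) in the authors' deposited table, or -1.08 without replicate 2, when it was still called. Its locus overlaps that of the kinase HASPIN, which had 5049 to 5550 normalized counts in RIP and a log2 change of 1.36 in the authors' deposited table. Only whole gene bounds were compared, not exons, and the strand setting is unknown. Whether overlapping genes shared counted reads was not tested. In all, 11 of the 76 members overlap another protein-coding locus, 6 of them among the 25 lower members. The share of all genes with such an overlap was not counted. Those 6 are ITGAE, FN1 (with ATIC), COL18A1 (with SLC19A1), COL4A4 (with RHBDD1), ITGA4 (with CERKL) and ITGB4 (with GALK1).

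Several alpha subunits of fibronectin and laminin receptors were not called. ITGA5, which with ITGB1 forms the classical fibronectin receptor, had 2300, 2029 and 2596 normalized counts in RIP against a derived input level of 2200. ITGA6, a laminin receptor subunit, had 2655, 2388 and 2051 against 1986, above input in each library. Their log2 folds in the authors' deposited table were 0.07 (SE 0.14) and 0.25 (SE 0.17). Both passed as higher under total-count scaling and with all 6 inputs as 1 group. ITGA3, another laminin receptor subunit, had 258, 180 and 236 against 364, with an adjusted p (DESeq2) of 0.0583 in the authors' deposited table. The collagen receptor subunits ITGA1 and ITGA2 had log2 folds of -0.47 (SE 0.34) and 0.15 (SE 0.29) by the authors' deposited table. ITGA2 ranged from 693 normalized counts in replicate 2 to 1691 in replicate 1, on both sides of its input of 1047. ITGA8, a kidney integrin, had 966, 783 and 741 against 943 and was not called either. ITGA7 and ITGA9 had wide errors, with log2 folds of -0.95 (SE 0.60) and -0.30 (SE 1.44) by the authors' deposited table. ITGA9 had 162 and 202 normalized counts in replicates 1 and 3 and no read in replicate 2.

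Of 7 tested integrin beta subunits 3 were lower and 0 higher, with a median log2 fold of -0.56 in the authors' deposited table. The shares were 42.9% and 0%, against 26.1% and 26.4% of tested protein-coding genes. ITGB1, the partner of most alpha subunits, had 1679, 1987 and 1651 normalized counts in RIP against a derived input level of 2876. In the authors' deposited table it stood at a log2 change of -0.70 (SE 0.16, adjusted p = 6.80e-05 by DESeq2). ITGB5, a partner of ITGAV, had 845, 974 and 903 against 1339, a log2 change of -0.56 (SE 0.16) in the authors' deposited table. ITGB4, the hemidesmosome partner of ITGA6, had 89.4, 93.9 and 156 against 246, a log2 change of -1.12 (SE 0.32) in the authors' deposited table. The RIP libraries of these 3 genes all lay below input, yet none of the 3 was called under total-count scaling. ITGB8, another partner of ITGAV, had 437, 51.4 and 194 against 130, with replicate 2 below input and the others above. It was not called (log2 fold 0.80, SE 0.62, in the authors' deposited table).

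Set beside each other, ligands and receptors had these folds. Fibronectin stood at -2.28 and its receptor subunits ITGA5, ITGAV, ITGA4 and ITGB1 at 0.07, -0.59, -0.87 and -0.70, all from the authors' deposited table. The laminin chains LAMA1, LAMB1 and LAMC1, which form 1 trimer, had -1.28, -1.50 and -0.81 by the authors' deposited table. The laminin receptor subunits ITGA6, ITGA3 and ITGB4 had 0.25, -0.70 and -1.12 by the authors' deposited table. Of these receptor subunits ITGAV, ITGA4, ITGB1 and ITGB4 were called, and no difference between ligand and receptor was tested. In no called matrix chain other than COL19A1 did a RIP library exceed the derived input. For all genes called lower, the same held for 4088 of 4108, and since the RIP mean lies below the input by construction, it shows no more than how the RIP libraries spread.

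**Figure D3:**
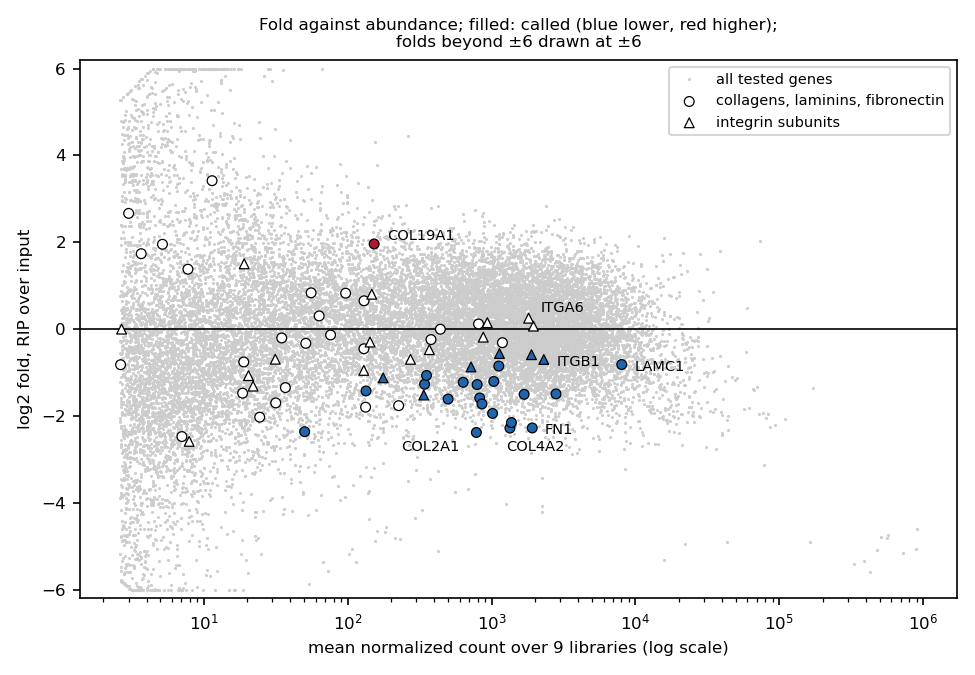
Log2 fold of RIP over input against the mean normalized count over 9 libraries (log scale) for 20649 tested genes (grey) and the 67 tested members (circles for matrix chains, triangles for integrins), from the authors' deposited table. Filled symbols are called; all but LAMA2 have a mean of at least 100, where 24 of 42 members were lower and 1 was higher.

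Calls were also counted by abundance. Of the 42 tested members with a mean normalized count of at least 100, 24 were lower and 1 higher, against 30.7% and 31.6% of all tested genes at that level. Of the 25 below it, only LAMA2 was called. Among the 24 others were COL3A1, COL4A3, COL5A2, COL6A3, COL6A5, COL6A6, COL7A1, COL8A1, COL8A2, COL9A2, COL9A3, COL11A2, COL12A1, COL15A1, COL16A1, COL23A1, COL28A1, ITGA10, ITGA11, ITGAL, ITGB2, ITGB3 and ITGB7. COL15A1, a basement membrane relative of COL18A1, had 4.14, 85.7 and 0 normalized counts in RIP, so that its log2 change, 3.42 (SE 2.31) by the authors' deposited table, rested on replicate 2. Without that library it was -0.44. COL26A1 and ITGA9 had a mean of at least 100 but no read in replicate 2 and were not called; COL26A1 had 105, 0 and 90.9 against 227. A further 9 members had no adjusted p, namely COL17A1, COL20A1, COL21A1, COL22A1, ITGAM, ITGAX, ITGB6, LAMB3 and LAMB4. COL17A1, COL20A1, ITGB6 and ITGB7 had no read in any RIP library, which allows up to 2.24 to 2.48 normalized counts per library. ITGAL, ITGAM and ITGAX, the alpha subunits of leukocyte integrins, stayed between 0 and 35.3 in RIP, and their partner ITGB2 between 16.6 and 32.8.

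Genes that act on or beside these proteins were counted in 5 related lists. Of 33 tested genes that modify and process collagen, 17 were lower and 2 higher, with a median log2 fold of -0.79 in the authors' deposited table. These are 51.5% and 6.06%, against 26.1% and 26.4% of tested protein-coding genes. P4HB, the shared subunit of the prolyl hydroxylases, had 3175, 2333 and 3664 normalized counts in RIP against a derived input level of 10630. PPIB, a prolyl isomerase, had 2605, 2506 and 3376 against 9675, and FKBP10, another isomerase of collagen folding, had 2185, 2081 and 2679 against 6797. Their log2 folds in the authors' deposited table were -1.80 (SE 0.15), -1.77 (SE 0.15) and -1.55 (SE 0.13). The hydroxylases P4HA1, P4HA2, PLOD1, PLOD2 and PLOD3 and the collagen chaperone SERPINH1 were lower too, from -0.89 to -1.38 in the authors' deposited table. COLGALT2 and ADAMTS3 were the genes of this list called higher, at 0.56 and 0.61 in the authors' deposited table.

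Other glycoproteins of the matrix were lower in 20 of 37 tested genes and higher in 3, at a median of -0.91 in the authors' deposited table. The shares were 54.1% and 8.11%, against 26.1% and 26.4% of tested protein-coding genes. NID1, which bridges laminin and type IV collagen, had 3051, 2421 and 2777 normalized counts against 9535, a log2 change of -1.79 (SE 0.11, adjusted p = 8.16e-58 by DESeq2) in the authors' deposited table. FBLN1 and FBN2, proteins of elastic fibres and microfibrils, had log2 folds of -1.90 (SE 0.16) and -1.41 (SE 0.13) by the authors' deposited table. The basement membrane partners NID2, HSPG2 and AGRN had -1.84, -1.75 and -1.41 by the authors' deposited table. CCN1, a matricellular protein induced early by growth factors, went the other way, with 1372, 1711 and 1829 normalized counts against 353. The log2 change from the authors' deposited table was 2.22 (SE 0.21), and NTN4 and SMOC1 were higher by 0.97 and 0.35 in the authors' deposited table.

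Matrix receptors other than integrins were lower in 10 of 18 tested genes and higher in 0, at a median of -0.46 in the authors' deposited table. The shares were 55.6% and 0%, against 26.1% and 26.4% of tested protein-coding genes. The proteoglycan GPC3, the laminin receptor BCAM and the tetraspanin CD151 had log2 folds of -2.06 (SE 0.15), -1.88 (SE 0.22) and -1.26 (SE 0.21) by the authors' deposited table. Adaptors inside the cell that tie integrins to actin and to signalling were split, with 16 lower and 10 higher of 37 tested. The shares were 43.2% and 27.0%, against the same background, so the share higher was near it. FLNA, a filamin that crosslinks actin, and RSU1, a partner of the integrin-linked kinase complex, were lower, by the authors' deposited table at -1.03 (SE 0.08) and -1.24 (SE 0.12). CRKL, a signalling adaptor, had 19747, 19804 and 21359 normalized counts against 10282, a log2 change of 0.98 (SE 0.10) in the authors' deposited table. Its relative CRK, the kinase SRC and the scaffold BCAR1 were higher by 0.90, 0.66 and 0.69 as the authors' deposited table gives them. The actin linkers TLN1, VCL and ACTN4 were lower, at -1.02, -0.77 and -0.70 by the authors' deposited table.

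Matrix proteases and their inhibitors were lower in 6 of 23 tested genes and higher in 3. The share lower was near the background of 26.1% of tested protein-coding genes, while the share higher was 13.0% against 26.4%. ADAMTS1, a protease that cuts proteoglycans, had 8042, 8740 and 8454 normalized counts in RIP against 2422, a log2 change of 1.80 (SE 0.13, adjusted p = 1.16e-44 by DESeq2) in the authors' deposited table. ADAM15 and the inhibitor TIMP1 were lower, by the authors' deposited table at -1.59 (SE 0.15) and -1.65 (SE 0.20). Over the 5 lists together 69 of 148 tested genes were lower (46.6%) and 18 higher (12.2%), against 26.1% and 26.4% of tested protein-coding genes. Under total-count scaling 36 were lower and 36 higher, while of all 20649 tested genes 2055 were lower and 6994 higher. Genes named here beyond the 3 with the smallest p of each list were chosen after their values were seen.

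**Figure D4:**
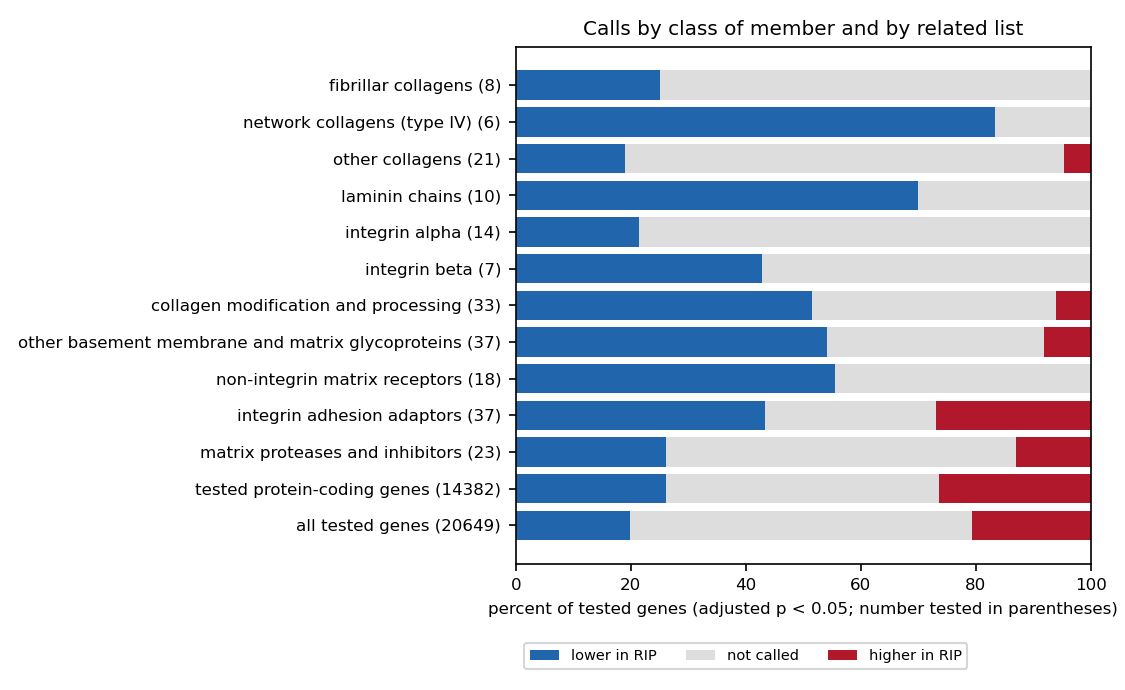
Percent of tested genes called lower (blue), not called (grey) or higher (red) in RIP in each class of collagens, laminins and integrins, in 5 related lists, and in all tested and all tested protein-coding genes, with the number tested in parentheses. Type IV collagen (83.3%) and laminins (70.0%) have the highest shares lower. Among these classes and lists only the adhesion adaptors have a share higher (27.0%) above that of all tested genes (20.6%). That 27.0% is near the 26.4% of tested protein-coding genes.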

How the data were processed

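Per the labels' protocols, cytoplasmic RNA of HEK293T RIP and input samples was isolated by Trizol, and libraries without ribosomal RNA were sequenced from 1 end for 75 bp. STAR, featureCounts, DESeq2 (no version for any) and the build GRCh38 appear in the submitters' processing notes. For annotation, strand setting and filters, nothing was given in the sources used here. Per the file headers and values, the RIP columns hold a signal made by the authors from gene counts over a size factor; 100% were whole multiples of 1 read within 0.01. The deposited mean normalized count averages 9 libraries. The log2 fold, its SE, the Wald statistic (a score), p-value, adjusted p-value and shrunken fold are the authors' deposited DESeq2 values. The names of 3 input columns match both kinds of input, so these columns were not used and the planned edgeR test could not be run.

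The input mean was derived as the RIP mean over the deposited fold. The called threshold was an adjusted p of 0.05 over 20649 tested genes. Alternatives shifted the fold or the RIP mean, kept the deposited SE, and repeated the Wald test with Benjamini-Hochberg adjustment (Python 3.11.15, scipy 1.17.1). That step was tested on simulated data, and its adjusted p equalled the deposited one within 1.44e-15. Positions and promoters came from RefSeq tables of GRCh38.p14, which placed all 76 members and gave promoters for 54.

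The members and lists were chosen with earlier results of these data known. By the naming rule, FN1, ITGB1, ITGAV, LAMB1, LAMC1, COL4A1 and COL4A2 and, per class, up to 4 called members each way with a mean of at least 100 are described in full, with 3 genes per related list; other members are named for completeness. Whether replicates were separate cultures is not in the labels. The p-values thus reflect only the variation among these libraries, which may be technical. Pairs of RIP libraries had a chi-square per degree of freedom of 53.3 to 61.6. The labels mention no molecular identifiers, so a read is not taken as its own molecule, and floors cover counting error only. Some genes are not reported here.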

Additional observations from a re-analysis of the deposited data

How the results depend on the processing

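Lower calls on members numbered 15 (total-count scaling) to 28 (without RIP replicate 1), against 25. Leaving out a RIP replicate gave 23 to 28 lower and 0 to 1 higher members, a member median of -0.93 to -0.70, 4007 to 4389 lower and 4178 to 4377 higher genes in all, and 69 lower and 17 to 20 higher related genes. The higher call lost without RIP replicate 2 was COL19A1. The deposited SE, which includes the library left out, was kept, so a lost call does not show that it rested on that library. Total-count scaling gave 15 lower and 6 higher members, a member median of -0.32 against 0.42 for all tested genes, 2055 lower and 6994 higher genes in all, and 36 lower and 36 higher related genes. With all 6 inputs as 1 group 24 members were lower, 22 of them shared with the 25, and 4 were higher. Requiring a 2-fold change left 19 lower members, 1989 lower and 2123 higher genes in all, and 36 lower and 3 higher related genes. The settings not named so far gave 23 to 27 lower members and 1 higher.

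No called member changed direction under these settings. Among members that were not called, these did. Under total-count scaling the log2 fold became 0.26 for COL1A1, 0.044 for COL24A1, 0.49 for COL27A1, 0.17 for COL4A3, 0.36 for COL5A2, 0.29 for COL9A2, 0.023 for ITGA1, 0.31 for ITGA8, 0.20 for ITGA9, 0.18 for LAMA3 and 0.50 for ITGB7, which has no RIP read. Without mitochondrial and small RNA genes COL27A1 and ITGB7 both became 0.13. With all 6 inputs COL1A1 became 0.099, COL25A1 -0.014, COL4A3 0.0097 and COL6A5 -3.20. Leaving out a RIP replicate moved COL15A1 from -0.44 to 4.003, COL25A1 from -0.093 to 0.26, COL27A1 from -0.12 to 0.18, COL5A2 from -0.31 to 0.029 and COL9A2 from -0.38 to 0.069. It moved ITGA2 from -0.22 to 0.41, ITGA5 from -0.023 to 0.15, ITGA9 from -0.88 to 0.29 and ITGB8 from -0.089 to 1.28. The causes were not tested. No paired analysis was possible because the input columns carry names that match both kinds of input library. The fits with DESeq2 and with a replicate block were not run for the same reason. Whether low counts kept the 24 uncalled members with a mean under 100 from being called was not tested.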
